A study of Rattus norvegicus with 6 samples.

Results

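Tubulin isotypes are the products of separate genes for α- and β-tubulin, and 10 of these genes are described here in rat heart muscle cells with and without knockdown of Decr1. They are the β-tubulin genes Tubb2a, Tubb2b, Tubb3, Tubb4b, Tubb5 and Tubb6 and the α-tubulin genes Tuba1a, Tuba1b, Tuba1c and Tuba4a. They were picked by symbol, 10 of the 30001 features in the expression table, and all 10 were among the 11975 features high enough to be tested. The 6 RNA-seq libraries came from NRVMs, ventricular heart muscle cells of newborn Sprague-Dawley rats in primary culture, purified with an isolation kit and a preplating step that lower but need not remove other heart cells. In 3 control libraries the cells had the control treatment that the labels call NC, and in 3 knockdown libraries a short hairpin RNA called sh-Decr1, against the gene of a mitochondrial reductase needed to oxidise unsaturated fatty acids. All 6 share the tissue, the strain and the batch number in the labels. Separate cultures or animals are not stated, so the p-values here cover the spread between libraries, which may be technical.

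α- and β-tubulin form the dimer from which microtubules are built, and the isotypes of a class are nearly alike except in the short acidic tail on the outside of the microtubule. Enzymes act on that tail, among them the vasohibins, which remove the last tyrosine of α-tubulin. In heart muscle, microtubules that lack this tyrosine bind the desmin network and resist contraction. Cells also sense free tubulin, and TTC5 then triggers the decay of tubulin mRNAs while they are being translated.

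Levels are in FPKM, fragments scaled to gene length and library size, so genes can be compared with each other. This has a limit among isotypes, since near copies can share reads. Each group is given as mean ± SD over its 3 libraries. A log2 fold change means knockdown minus control, on log2(FPKM + 1), and is too small for low genes. The libraries held 35290664 to 40108670 fragments. Decr1 itself read 43.6, 44.3 and 42.8 FPKM in control libraries against 3.33, 1.24 and 2.36 FPKM after knockdown, which left 5.30% of the control mean. Its log2 fold change was -3.80 (SE 0.19, limma, adjusted p = 3.23e-08). Most of the transcriptome differed: 80.8% of features passed an adjusted p of 0.05 in limma, 48.4% higher and 32.4% lower in the knockdown. That was 5797 higher and 3881 lower, but 4649 and 4905 once libraries were scaled by median ratios, and 4989 and 4568 by quantiles. Scaling by median ratios moved the middle (median) log2 fold change over all features from 0.14 to -0.02, an offset that small shifts have to be read against.

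The 12 cardiomyocyte markers summed to 7746 to 7878 FPKM in control libraries and 8726 to 9151 FPKM after knockdown, but 6 rose and 6 fell, the median log2 fold change being 0.01. The myosin light chain gene Myl2 fell to 6.24% of its control mean and the heavy chain genes Myh7 to 13.9% and Myh6 to 39.4%, while Actc1, cardiac actin, rose from 2963 ± 69.7 to 4338 ± 115 FPKM (limma, adjusted p = 1.03e-06). The 15 fibroblast markers, collagen genes among them, summed to 7900.0 to 8782 and 713 to 811 FPKM, and all 15 fell. Of all features, 32.4% did. Bulk RNA cannot tell fewer cells of a type from less RNA per cell.

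All 10 isotypes passed the test, where 80.8% of all features did. Tubb4b, Tubb5, Tubb6, Tuba1b, Tuba1c and Tuba4a rose, and Tubb2a, Tubb2b, Tubb3 and Tuba1a fell. Groups did not overlap for any of the 10, with 6 higher and 4 lower in the knockdown. This also held for 82.3% of all features, 49.2% being higher and 33% lower in the knockdown, so neither count sets the isotypes apart from other genes. Size and direction differed among them. Tubb3 fell to 20.7% of its control mean, and Tubb6 rose to 2.13 times its own. Their median log2 fold change was 0.33.

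**Figure D1:**
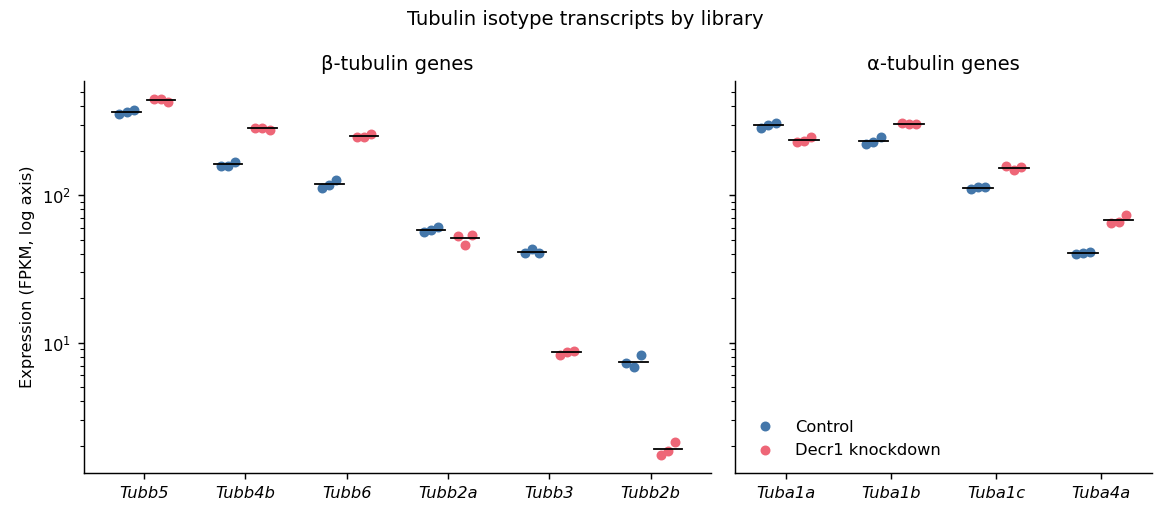
Expression of the 10 isotypes in FPKM on a log axis, 1 point per library and a line at the mean of 3 libraries, for controls and the Decr1 knockdown. Tubb3 and Tubb2b dropped furthest, Tubb6 and Tubb4b climbed furthest, and Tuba1a and Tuba1b exchanged places.

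The 250 bases before the RefSeq start site are shown for 6 isotypes: the largest falls (Tubb3, Tubb2b), the largest rises (Tubb6, Tubb4b) and the α-tubulin neighbours that went opposite ways (Tuba1a, Tuba1b). They are RefSeq sequences on GRCr8, written 5′ to 3′ in the direction of transcription, and all 10 isotypes had an entry. Capitals mark matches on either strand to 3 motifs. The first is TATAA, the core of the box bound by the TATA-binding protein. The next is CCAAT, which NF-Y binds. The last is GGGCGG, the GC box that Sp1 binds. Overlapping matches run together as 1 stretch.
Tubb3 (chr19:68365437-68365686, plus strand): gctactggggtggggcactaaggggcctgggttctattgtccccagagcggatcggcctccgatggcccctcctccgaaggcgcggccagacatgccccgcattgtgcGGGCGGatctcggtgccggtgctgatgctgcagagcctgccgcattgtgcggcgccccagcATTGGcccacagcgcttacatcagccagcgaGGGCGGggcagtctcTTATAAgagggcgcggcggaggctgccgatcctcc
Tubb2b (chr17:30952836-30953085, plus strand): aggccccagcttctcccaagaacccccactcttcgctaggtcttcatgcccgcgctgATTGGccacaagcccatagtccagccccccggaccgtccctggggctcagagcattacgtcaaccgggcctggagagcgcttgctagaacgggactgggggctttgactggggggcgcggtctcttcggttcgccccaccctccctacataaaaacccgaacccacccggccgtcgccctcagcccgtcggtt
Tubb6 (chr18:63213037-63213286, plus strand): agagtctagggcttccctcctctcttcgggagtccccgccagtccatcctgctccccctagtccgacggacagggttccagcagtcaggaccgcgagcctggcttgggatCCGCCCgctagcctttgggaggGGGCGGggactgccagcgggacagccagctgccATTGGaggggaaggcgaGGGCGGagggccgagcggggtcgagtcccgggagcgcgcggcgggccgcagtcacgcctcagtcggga
Tubb4b (chr3:28438456-28438705, minus strand): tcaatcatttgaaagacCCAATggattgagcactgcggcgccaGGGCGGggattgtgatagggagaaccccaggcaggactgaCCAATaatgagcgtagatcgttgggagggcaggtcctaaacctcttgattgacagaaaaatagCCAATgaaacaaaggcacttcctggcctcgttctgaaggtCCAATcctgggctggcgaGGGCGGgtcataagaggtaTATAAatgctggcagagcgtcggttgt
Tuba1a (chr7:131995820-131996069, minus strand): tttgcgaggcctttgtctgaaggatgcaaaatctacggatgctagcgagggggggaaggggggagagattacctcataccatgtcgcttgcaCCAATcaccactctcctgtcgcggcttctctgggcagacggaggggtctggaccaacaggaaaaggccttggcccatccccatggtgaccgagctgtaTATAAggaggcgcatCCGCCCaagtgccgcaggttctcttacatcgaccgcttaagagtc
Tuba1b (chr7:131972588-131972837, minus strand): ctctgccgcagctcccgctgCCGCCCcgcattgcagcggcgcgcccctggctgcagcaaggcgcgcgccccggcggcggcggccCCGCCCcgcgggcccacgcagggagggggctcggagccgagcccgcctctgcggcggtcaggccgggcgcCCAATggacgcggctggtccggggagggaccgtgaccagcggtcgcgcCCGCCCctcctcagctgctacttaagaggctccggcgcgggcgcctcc

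The stretches differ in make-up. CCAAT has 4 matches before Tubb4b and 1 before each of the others printed, and 34.3% of the 27457 RefSeq promoters of this length hold any. TATAA stands before Tubb3 (on both strands, overlapping), Tubb4b and Tuba1a, and 24.1% of all promoters hold it. GGGCGG has 3 matches before Tubb6 and Tuba1b, 2 before Tubb3 and Tubb4b, 1 before Tuba1a and 0 before Tubb2b, and 32.4% of all promoters hold it. GC content ran from 52.00% before Tubb4b to 80.4% before Tuba1b, with a median of 52.00% over all promoters. Over all 10 isotypes, TATAA was found before 3 of 6 that rose and 3 of 4 that fell, CCAAT before 5 and 3, and GGGCGG before 6 and 3.

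Tubb5, a widely expressed β-tubulin, was the most abundant β-tubulin transcript in all 6 libraries. Its control libraries read 354, 367 and 379.8 FPKM and its knockdown libraries 450.2, 450.1 and 429 FPKM. Every knockdown library was above every control, at means of 367 ± 12.8 and 443 ± 12.3 FPKM. The log2 fold change was 0.27 (SE 0.04, limma, adjusted p = 0.000193), a size that 70.5% of all features tested reached or passed. Scaled by median ratios it was 0.09 (limma, adjusted p = 0.102) and did not pass.

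Tubb4b, another widely expressed β-tubulin and a building block of cilia, came second in both groups. It read 158, 158 and 169 FPKM in control libraries and 288, 286 and 278 FPKM after knockdown. The knockdown libraries lay close together and far above the controls, at 1.76 times the control mean. This made a log2 fold change of 0.81 (SE 0.04, limma, adjusted p = 5.10e-08).

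Tubb6, the class V β-tubulin, had the largest rise of the 10. Control libraries read 112, 117 and 127 FPKM, knockdown libraries 246, 249 and 261 FPKM. The lowest knockdown library was well above the highest control. Its log2 fold change was 1.08 (SE 0.05, limma, adjusted p = 3.19e-08), and 16.4% of all features tested changed by as much or more.

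Mitosis needs tubulin, and all 10 mitotic markers rose in the same libraries, as did 48.4% of all features. They summed to 110.2 to 121 FPKM in control libraries and 192 to 203 after knockdown, with a median log2 fold change of 0.61. The part of dividing cells in the rise of Tubb4b, Tubb5 and Tubb6 was not tested.

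Tubb3, the β-tubulin used as a marker of neurons, had the largest fall. Control libraries read 40.7, 43.2 and 40.5 FPKM and knockdown libraries 8.24, 8.70 and 8.82 FPKM. The controls were 4.83 times as high, at means of 41.5 ± 1.49 and 8.59 ± 0.310 FPKM. The log2 fold change was -2.15 (SE 0.05, limma, adjusted p = 3.28e-10), and 3.19% of all features tested changed by as much or more. The knockdown values rested on 543 to 574 reads per library.

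Tubb2b, abundant in the developing brain, was the lowest of the 10 and fell next most. It read 7.31, 6.82 and 8.21 FPKM in control libraries and 1.73, 1.85 and 2.12 FPKM after knockdown. No knockdown library came near a control, and 25.5% of the control mean was left, a log2 fold change of -1.54 (SE 0.08, limma, adjusted p = 7.22e-08). These values rested on 456 to 555 and 109 to 126 reads.

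Tubb2a, its close relative, fell far less. Control libraries read 56.3, 58.04 and 60.8 FPKM and knockdown libraries 53.2, 46.1 and 53.5 FPKM, with knockdown replicate 2 lowest. The lowest control and the highest knockdown library, at 56.3 and 53.5 FPKM, were closer than the lowest and highest knockdown libraries. Tubb2a had a log2 fold change of -0.20 (SE 0.06, limma, adjusted p = 0.0154). It no longer passed without control replicate 3, at -0.17 (limma, adjusted p = 0.0517), or without knockdown replicate 2, at -0.13 (limma, adjusted p = 0.0573). Tubb2a was 7.41 to 8.51 times as high as Tubb2b in control libraries and 24.9 to 30.8 times after knockdown.

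Markers listed for other cells moved in the libraries where Tubb3 and Tubb2b fell. Fibroblast markers had a median log2 fold change of -3.27. Of 5 epicardial and mesothelial markers 4 were tested, and all 4 fell, the list summing to 144 to 163 FPKM in control libraries and 3.23 to 3.96 after knockdown. Of 6 Schwann cell markers 3 were tested and 2 fell, the list summing to 7.66 to 8.32 FPKM in control libraries and 3.53 to 3.91 after knockdown. Of 11 neuronal markers 3 were tested, of which Gap43, a growth cone gene, rose from 0.0957 ± 0.0423 to 4.51 ± 0.363 FPKM (limma, adjusted p = 3.30e-09) and Nefm and Dbh did not pass. All 11 summed to 3.87 to 4.07 FPKM in control libraries and 8.23 to 9.04 FPKM after knockdown, a rise that lay mostly in Gap43. The 8 smooth muscle and pericyte markers summed to more after knockdown, 3499 to 3776 and then 5816 to 6247 FPKM, with 4 higher and 3 lower. Most of that rise lay in Acta2, at means of 1672 and 3481 FPKM, and Des, at 614 and 1215 FPKM. Des encodes desmin, which heart muscle cells also make, so this sum is not particular to other cells. Pdgfrb, of the same list, fell from 144 to 24.0 FPKM. Of 8 macrophage and leukocyte markers 5 were tested and 3 fell, the sums being 138 to 159 and 108 to 123 FPKM. Of 8 endothelial markers 5 were tested, 1 rose and 3 fell, the sums being 13.8 to 15.1 and 12.9 to 14.2 FPKM. No marker of these lists was at 0 in every library. The part of these cells in the fall of Tubb3 and Tubb2b was not tested.

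Among the α-tubulins, the leading transcript was not the same in both groups. Tuba1a, best known from developing neurons, read 286, 299 and 309 FPKM in control libraries and 229, 233 and 246 FPKM after knockdown. Every knockdown library was below every control, with a log2 fold change of -0.33 (SE 0.05, limma, adjusted p = 7.41e-05).

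Tuba1b, the widely expressed α-tubulin encoded beside Tuba1a, went the other way. It read 221, 230.0 and 249 FPKM in control libraries and 307, 304 and 306 FPKM after knockdown, where libraries differed little. The log2 fold change was 0.39 (SE 0.05, limma, adjusted p = 2.85e-05). Within a library, Tuba1a was 1.29, 1.30 and 1.24 times Tuba1b in controls and 0.745, 0.766 and 0.805 times Tuba1b in the knockdown. Library scaling cannot move this ratio, which was singled out after its values were seen.

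Tuba1c, on the same chromosome, read 110.4, 114 and 114 FPKM in control libraries and 157, 147 and 155 FPKM after knockdown. The groups were well apart, with a log2 fold change of 0.44 (SE 0.04, limma, adjusted p = 4.57e-06). The model of Tuba1c in RefSeq spans Tuba1a and Tuba1b, but the FPKM values give it a length of only 1536 bases. Whether reads were assigned unevenly among these 3 was not tested.

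Tuba4a, in mouse and human, encodes an α-tubulin made without the last tyrosine. It had the largest rise of the 4 α-tubulins, from 39.8, 40.9 and 40.9 FPKM in control libraries to 65.2, 65.6 and 73.4 FPKM after knockdown. Knockdown replicate 3 was highest, and all 3 were above the controls. This was a log2 fold change of 0.73 (SE 0.05, limma, adjusted p = 5.76e-07).

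The β-tubulins kept 1 order of levels in both groups, from high to low Tubb5, Tubb4b, Tubb6, Tubb2a, Tubb3 and Tubb2b. Neighbours in this order had ranges that did not overlap. The narrowest step was Tubb4b over Tubb6, 1.36 times in controls and 1.13 times in the knockdown. For the α-tubulins the order was Tuba1a, Tuba1b, Tuba1c, Tuba4a in controls and Tuba1b, Tuba1a, Tuba1c, Tuba4a in the knockdown, again without overlap between neighbours.

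Summed over its 6 isotypes, β-tubulin came to 754 ± 28.7 FPKM in control libraries and 1040.4 ± 7.44 after knockdown, 1.38 times as much, or 1.21 times when scaled by median ratios. The 4 α-tubulins came to 685 ± 27.7 and 763 ± 15.7 FPKM, 1.11 times as much, but 0.980 times when scaled by median ratios, so the direction depended on the scaling. The α sum over the β sum was 0.902, 0.912 and 0.908 in control libraries and 0.724, 0.720 and 0.756 after knockdown, which scaling cannot move. For these 3 quantities the groups did not overlap, and a two-sided exact permutation test gave p = 0.1, the smallest that 3 libraries against 3 allow.

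**Figure D2:**
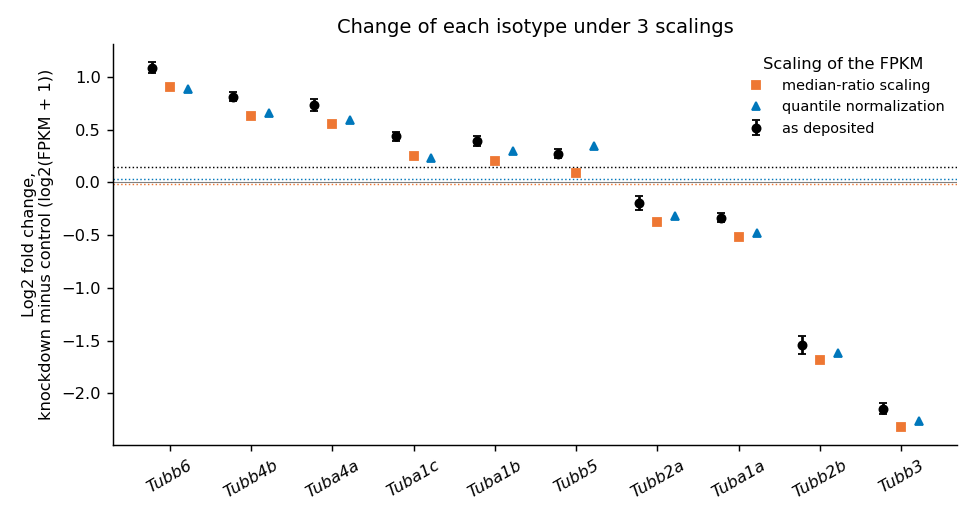
Log2 fold change of each isotype on log2(FPKM + 1), as deposited with its standard error, scaled by median ratios, and after quantile normalization, with dotted lines at the medians of all features. No isotype crossed 0, and Tubb5 came nearest when scaled by median ratios, at 0.09.

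Shares of the summed FPKM set the isotypes of a class against each other within a library. Tubb5 held 48.7 ± 0.294% of β-tubulin in controls and 42.6 ± 0.909% in the knockdown, although its level was higher there. Tubb6 went from 15.7 ± 0.439% to 24.2 ± 0.953%, the widest difference among the β-tubulins, and Tubb4b from 21.4 ± 0.327% to 27.3 ± 0.327%. The low isotypes held less in the knockdown. Tubb3 had 5.50 ± 0.307% and 0.826 ± 0.0352%, Tubb2a 7.74 ± 0.0124% and 4.90 ± 0.409%, and Tubb2b 0.986 ± 0.0694% and 0.183 ± 0.0204%. Tubb5, Tubb4b and Tubb6 together made up 85.6 to 86.05% of β-tubulin in controls and 93.8 to 94.6% in the knockdown.

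Of α-tubulin, Tuba1a held 43.5 ± 0.192% in controls and 30.9 ± 0.703% in the knockdown. Tuba1b held 34.1 ± 0.704% and 40.1 ± 0.765%, Tuba1c 16.5 ± 0.425% and 20.05 ± 0.579%, and Tuba4a 5.92 ± 0.161% and 8.92 ± 0.427%. For all 10 shares the groups did not overlap, and each gave p = 0.1 in the two-sided exact permutation test, also 0.1 when adjusted over the 10. Shares of a class add up to the whole, so they are not independent.

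**Figure D3:**
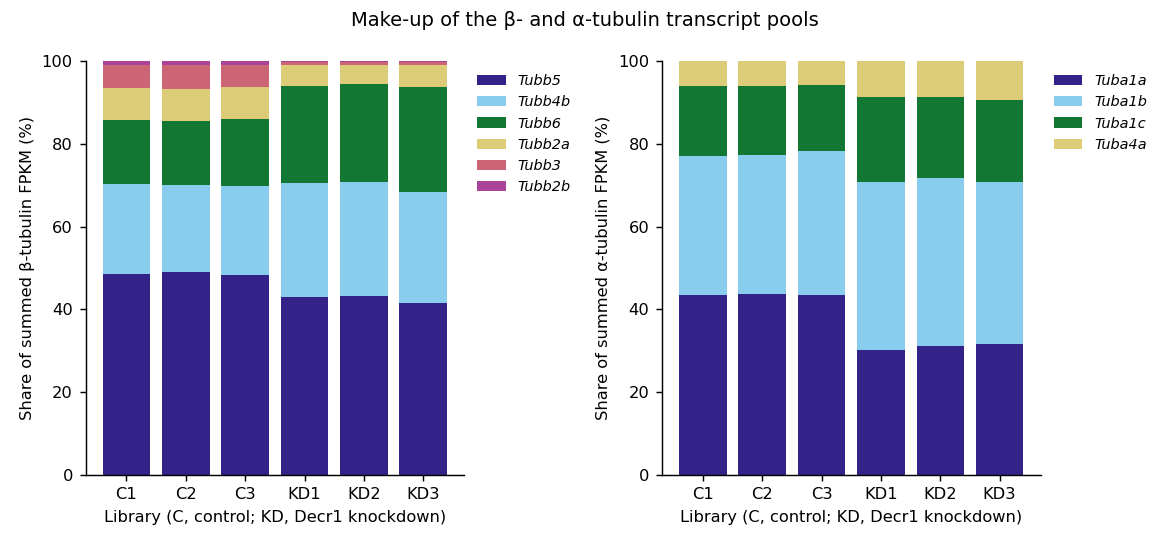
Share of each isotype in the summed β-tubulin and α-tubulin FPKM, as stacked bars in percent for each of the 6 libraries. In the knockdown Tubb6 and Tubb4b take up more of β-tubulin and Tuba1b more of α-tubulin, while Tubb3 and Tuba1a take up less.

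**Figure D4:**
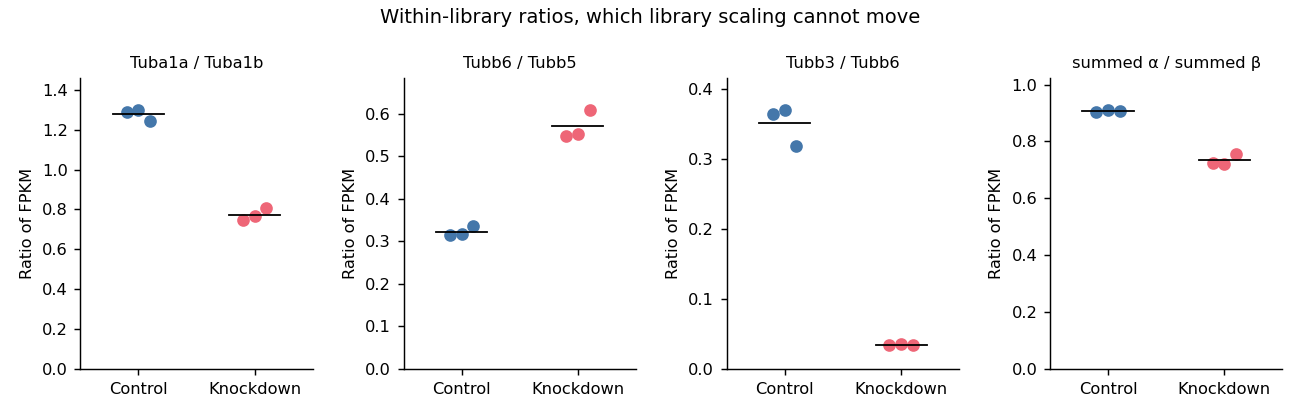
Ratios of FPKM within each library, 1 point per library and a line at the group mean. Tuba1a over Tuba1b lies above 1 in the controls and below it in the knockdown, and Tubb6 over Tubb5 has a mean of 0.323 in controls and 0.570 in the knockdown.

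Likeness to other features was measured as the Euclidean distance between log2(FPKM + 1) profiles over the 6 libraries, each centred on its mean. With only a pair of groups it mostly reads the size of the difference between them on that scale, which shrinks the folds of low genes. Genes at unlike levels can therefore lie near each other with unlike folds. The nearest to Tubb3 were Frzb (0.116), Zcchc24 (0.138) and Col5a1 (0.143). Frzb averaged 4.24 FPKM in control libraries and 0.219 after knockdown, and Zcchc24 31.9 and 6.06 FPKM. Col5a1, a collagen gene and one of the 15 fibroblast markers, averaged 187 and 41.9 FPKM. Its log2 fold change of -2.13 was smaller in size than the median of -3.27 for those markers. The 3 nearest to the others, with the distance of the first, were Gpx7 (0.110), Eri3 and Slc7a3 for Tubb2b, Nckipsd (0.0553), Smad5 and Nt5dc3 for Tubb2a and Nbeal2 (0.0730), Arih2 and Mrpl14 for Tubb6. For the most abundant β-tubulins they were Mdc1 (0.0333), Rnf10 and Birc5 for Tubb4b and Txn2 (0.0502), Slc3a2 and Spred2 for Tubb5. For the α-tubulins they were Rpl29 (0.0455), Ankrd12 and Anxa3 for Tuba1a, Pes1 (0.0484), Zfr and Ctbp2 for Tuba1b, Sec23a (0.0450), Pi4kb and Xpnpep1 for Tuba1c and Zfp830 (0.0605), Rhod and Fermt2 for Tuba4a. Among the 10 themselves, Tuba1b and Tuba1c were closest, at 0.124.

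The remaining tubulin genes were low, apart from Tubg1. Tuba8, an α-tubulin of muscle and testis in mouse and human, read 1.16, 0.584 and 0.866 FPKM in control libraries and 5.57, 4.70 and 4.64 FPKM after knockdown, with a log2 fold change of 1.68 (SE 0.12, limma, adjusted p = 3.79e-07) and 40 to 80 reads in controls. Tubb4a, a β-tubulin of myelinating glia, had 19 to 43 reads in a library and was below the filter. Tubb1, the platelet form, Tuba3a and Tubal3 were listed at 0 in all libraries, and Tuba3b had 3 reads over the 6. Tubg1, the γ-tubulin that starts new microtubules, rose from 26.7 ± 2.75 to 43.9 ± 1.49 FPKM (limma, adjusted p = 5.43e-06). Tube1, the ε-tubulin of centrioles, rose from 1.39 ± 0.268 to 2.23 ± 0.119 FPKM (limma, adjusted p = 0.00154). The δ-tubulin gene Tubd1 stood at 1.14 ± 0.0451 and 0.977 ± 0.0323 FPKM (limma, adjusted p = 0.181) and Tubg2 at 2.18 ± 0.647 and 2.32 ± 0.257 FPKM (limma, adjusted p = 0.596), neither past the threshold. Scaled by median ratios, Tubd1 passed as lower at -0.21 (limma, adjusted p = 0.0252), and without control replicate 3 Tubg2 passed as higher at 0.24 (limma, adjusted p = 0.0445).

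Genes that fold, modify, nucleate, bind or move along microtubules, with those other tubulins, formed 8 lists of 131 genes in all. Of 104 tested, 54 rose, 30 fell and 20 did not pass, with a median log2 fold change of 0.16 beside 0.14 for all features. The 84 called are 80.8%, as against 80.8% of all features (48.4% higher, 32.4% lower), so the count does not set these genes apart, and those of the single lists are to be read against the same shares. Scaled by median ratios, 39 were higher and 42 lower, and by quantiles 42 and 37.

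Of 20 tubulin folding genes 12 rose and 6 fell, or 8 and 7 under either scaling, and the median log2 fold change was 0.23. Tcp1, a subunit of the chaperonin that folds tubulin, rose from 62.5 ± 4.67 to 89.3 ± 0.556 FPKM (limma, adjusted p = 1.03e-05). Another subunit, Cct2, stood at 109.8 ± 2.87 and 113 ± 1.61 FPKM (limma, adjusted p = 0.399) and did not pass, but scaled by median ratios it was lower, at -0.15 (limma, adjusted p = 0.00773). The further subunits Cct3, Cct4, Cct5, Cct6a, Cct7 and Cct8 all rose as deposited, from 1.17 times the control mean for Cct7 to 1.56 times for Cct8. Tbcb, a cofactor that handles α-tubulin, rose from 45.6 ± 2.67 to 67.1 ± 2.29 FPKM (limma, adjusted p = 4.85e-06). Tbce, which works with it, rose from 14.5 ± 1.57 to 17.3 ± 0.507 FPKM (limma, adjusted p = 0.0127), but did not pass when scaled by median ratios (limma, adjusted p = 0.416). The β-tubulin cofactor gene Tbca stood at 42.6 ± 2.09 and 44.5 ± 4.36 FPKM (limma, adjusted p = 0.448) and did not pass. Tbcd, which takes part in the same step, read 19.7 ± 1.53 and 21.98 ± 0.533 FPKM (limma, adjusted p = 0.0405), but its sign turned under either scaling. It did not pass without control replicate 2 (limma, adjusted p = 0.146) or without any 1 of the 3 knockdown replicates.

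Of 12 tubulin-modifying genes 3 rose and 6 fell, or 2 and 8 when scaled by median ratios and 3 and 6 by quantiles, and the median log2 fold change was -0.21. Vash1, a vasohibin that removes the last tyrosine of α-tubulin, fell from 8.15 ± 0.249 to 5.14 ± 0.0716 FPKM (limma, adjusted p = 7.48e-06). The other vasohibin, Vash2, fell from 4.78 ± 0.475 to 3.56 ± 0.228 FPKM (limma, adjusted p = 0.00281), and Svbp, the partner both need, fell from 12.8 ± 0.767 to 7.73 ± 0.251 FPKM (limma, adjusted p = 3.84e-06). Ttl, the ligase that puts the tyrosine back, rose from 12.9 ± 0.612 to 16.6 ± 0.985 FPKM (limma, adjusted p = 0.000471). The acetyltransferase gene Atat1 stood at 5.42 ± 0.859 and 5.09 ± 0.313 FPKM (limma, adjusted p = 0.507) and the deglutamylase gene Agtpbp1 at 5.03 ± 0.199 and 4.78 ± 0.217 FPKM (limma, adjusted p = 0.409). Neither passed, but scaled by median ratios both were lower, at -0.23 (limma, adjusted p = 0.0495) and -0.21 (limma, adjusted p = 0.0129). Another deglutamylase gene, Agbl5, was below the filter.

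Of the 3 genes tested for the decay of tubulin mRNA 2 rose and 1 fell, or 1 and 1 under either scaling. Ttc5, which recognises nascent tubulin, fell from 8.14 ± 0.628 to 6.84 ± 0.249 FPKM (limma, adjusted p = 0.0131), but did not pass without control replicate 1 (limma, adjusted p = 0.0539). Cnot11, the part of the deadenylase complex that takes this signal up, rose from 12.2 ± 0.739 to 14.8 ± 1.42 FPKM (limma, adjusted p = 0.00947), but did not pass when scaled by median ratios (limma, adjusted p = 0.323). Cnot1, the third gene of this list, rose from 21.7 ± 0.761 to 32.0 ± 0.545 FPKM (limma, adjusted p = 2.46e-06).

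Of 14 nucleation genes 8 rose and 3 fell, or 6 and 4 when scaled by median ratios and 7 and 3 by quantiles. Tubgcp2, a core part of the ring that holds γ-tubulin, rose from 8.76 ± 0.269 to 25.8 ± 0.613 FPKM (limma, adjusted p = 3.42e-09). Of 24 microtubule-associated and plus-end genes 13 rose and 7 fell, or 10 and 9 when scaled by median ratios and 11 and 9 by quantiles. The plus-end binder Mapre1 rose from 51.02 ± 3.27 to 82.2 ± 1.84 FPKM (limma, adjusted p = 9.64e-07). Map1b, best known from axons, rose from 21.3 ± 0.698 to 30.2 ± 1.48 FPKM (limma, adjusted p = 1.20e-05). Map4, a widely expressed microtubule-associated protein, read 19.5 ± 0.280 and 21.3 ± 0.291 FPKM (limma, adjusted p = 0.0334), but its sign turned under either scaling, and it passed in 1 of the 6 fits that left out a library, that without control replicate 3. The polymerase gene Ckap5 stood at 11.6 ± 0.489 and 10.6 ± 0.706 FPKM (limma, adjusted p = 0.0999) and did not pass, but was lower when scaled by median ratios, at -0.29 (limma, adjusted p = 0.00178). Mapt, the gene of tau, was below the filter.

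Of 9 destabilising or severing genes 5 rose and 1 fell, or 5 and 3 under either scaling. Stmn1, which binds free tubulin dimers, rose from 37.4 ± 3.49 to 86.5 ± 1.90 FPKM (limma, adjusted p = 5.66e-08). The depolymerising kinesin Kif2a rose from 8.79 ± 0.240 to 13.7 ± 0.949 FPKM (limma, adjusted p = 1.21e-05). Spast, a severing enzyme, fell from 4.27 ± 0.488 to 3.31 ± 0.315 FPKM (limma, adjusted p = 0.0128), but did not pass without control replicate 2 (limma, adjusted p = 0.0527) or knockdown replicate 2 (limma, adjusted p = 0.0510). The neuronal Stmn2 had 23 to 40 reads in control libraries and 2 over the 3 knockdown libraries, and was below the filter. Of 19 motor genes 9 rose and 6 fell, but the balance turned to 5 and 9 when scaled by median ratios and 5 and 7 by quantiles. The kinesin heavy chain Kif5b fell from 56.4 ± 1.81 to 30.3 ± 1.08 FPKM (limma, adjusted p = 7.00e-08). The dynein heavy chain Dync1h1 rose from 49.1 ± 2.28 to 69.5 ± 2.79 FPKM (limma, adjusted p = 7.96e-06).

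**Figure D5:**
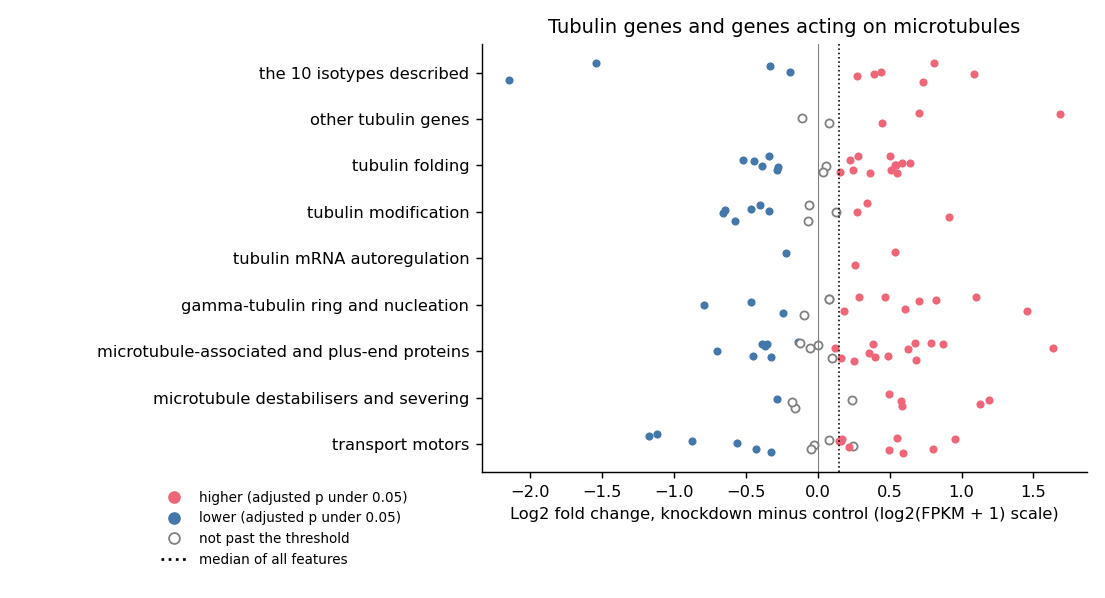
Log2 fold change of each tested gene on log2(FPKM + 1), for the 10 isotypes and 8 lists of related genes, by call. The dotted line is the median of all features, 0.14, and genes that rose and genes that fell occur in all lists but the other tubulin genes, where none fell.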

How the data were processed

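Per the labels, TRIzol was used for total RNA and a VAHTS kit for the libraries. Reads went through fastp, HISAT2 and HTSeq, tools that the submitters' processing notes list. Not given in the sources used here were versions, build, annotation and strandedness. As deposited by the authors, the table holds FPKM per gene symbol, 1 column per library. Values were taken as log2(FPKM + 1). The 11975 features averaging at least 1 FPKM were fitted with limma 3.58.1 (lmFit, eBayes with trend) in R 4.3.3, without covariates. Two-sided p-values were adjusted by Benjamini-Hochberg over all features tested, with a threshold of 0.05. The fit was also run on simulated data in which few features changed. Most changed here, so that run does not vouch for calls that depend on the scaling.

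FPKM were whole multiples of a step in 22629 of 22634 features above 0 (tolerance 1e-05 reads), which gave depths and reads. Depth ran from 35290664 to 40108670 fragments, so that 3 reads on 1 kb equal 0.0748 to 0.0850 FPKM. Replicates of a group differed by more than sampling noise (chi-square per feature 7.14 to 12.3).

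Sums and shares were compared by exact permutation tests (scipy 1.17.1). Promoters and annotation came from RefSeq on GRCr8, which names 29 pseudogenes after 5 of the isotypes, 14 of them after Tuba1b, and overlaps 5 isotypes with another gene. It also places a protein-coding gene named Tubb2al1 between Tubb2b and Tubb2a. Reads shared with such copies or neighbours cannot be told apart. Isotypes, lists and tests were chosen with earlier results of these data known. The text names all isotypes, the other tubulins, genes chosen for their roles (Hdac6 not analysed here) and the features nearest in profile. Marker genes, the further chaperonin subunits and Cnot1 were named after their values were seen. Alternatives were a pseudocount of 0.1, no filter, median-ratio scaling, quantile normalization, a replicate block, leaving out each library, adding other tubulins to the sums, and reads in place of FPKM in the shares.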

Additional observations from a re-analysis of the deposited data

How the results depend on the processing

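Of 110 refits of the 10 isotypes under 11 alternatives, 107 kept direction and call and 0 turned the direction. The exceptions were Tubb5 scaled by median ratios, which left 5 isotypes higher, and Tubb2a without control replicate 3 or knockdown replicate 2, which left 3 lower. With 1 library left out, 9241 to 9494 features were called, the β-tubulin sum was 1.36 to 1.41 times control and the α-tubulin sum 1.09 to 1.14 times. Scaling by median ratios gave 1.21 and 0.980 times. Reads in place of FPKM, which are not per length, gave share differences of -2.17 percentage points for Tubb2a, -0.671 for Tubb2b, -4.09 for Tubb3, 5.01 for Tubb4b and 4.28 for Tuba4a. Without a filter 11970 of the 22634 features above 0 were called, beside 9678 of the 11975 that passed the filter.

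Among related genes the log2 fold change turned sign when scaled by median ratios for Tubg2 (-0.051), Map4 (-0.056), Tbca (-0.12), Tbcd (-0.023) and Cct2 (-0.15), and under quantile normalization for Map4 (-0.042), Tbca (-0.063), Tbcd (-0.013) and Cct2 (-0.15). With 1 library left out it ran from -0.024 to 0.24 for Tubg2, -0.16 to 0.031 for Atat1 and -0.018 to 0.11 for Tbca. The cause was not tested. No pairing by replicate number was seen: deviations of same-numbered libraries correlated at -0.00267, 0.0678 and -0.0713. Those of unlike numbers ran from -0.147 to 0.146. This check cannot exclude cultures or preparations shared between libraries. With a replicate block 9574 features were called, 6 isotypes higher and 4 lower, and of the named genes Map4 lost its call (limma, adjusted p = 0.0618). Of the 10 isotypes, Tubb2b had the fewest reads, 109 to 126 in the knockdown, and among other named genes that were called Tuba8 had 40 to 80 in controls.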
